A study of Mus musculus with 6 samples.

Results

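The comparison described here set Th2-4th cells against Th2-1st cells, both stimulated through the T cell receptor (TCR). Th2-4th cells are splenic CD4 T cells that went through Th2 culture and then 3 rounds of restimulation, and Th2-1st cells are the effector Th2 cells taken after the first 5-day culture. All cells came from C57BL/6 mice, aged 6 to 8 weeks by the methods. The first culture used immobilized anti-TCR and anti-CD28 antibodies with 25 U/ml IL-2 and 100 U/ml IL-4, whereas each later round consisted of 2 days without added cytokines and 5 days with anti-TCR, IL-2 and an antibody that blocks IL-4. Culture age, the number of TCR stimulations and the blockade of IL-4 therefore change together and cannot be told apart. Both cultures were transfected with a control siRNA and, 24 h later, restimulated for 4 h with plate-bound anti-TCR. The series holds 4 more arrays, used here for reference: each culture with the control siRNA and no restimulation, and each culture with a GATA3 siRNA and restimulation.

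Each condition was hybridised to 1 Affymetrix mouse whole-genome array, so no value has a replicate, and within the stimulated pair no error can be given and no test made. Of 18194 genes with a probe set that named them alone, the 11093 whose higher signal of the pair exceeded that array's median (72.8 in Th2-4th and 61.8 in Th2-1st cells) are described. At the edge of this filter, Guf1 (72.9 in Th2-4th and 72.3 in Th2-1st cells) was just inside and Elavl2 (72.8 and 59.4 in the same order) just outside. Each gene is given by the linear signal of its brightest probe set and by the log2 ratio of Th2-4th over Th2-1st. A gene more than 2-fold apart is called higher or lower. The log2 ratios of all described genes had a median of 0.05, and their robust SD (scaled from the median absolute deviation) was 1.06 in the dimmest and 0.51 in the brightest of 5 equal groups of genes by mean signal. This spread includes real differences and stands in for no replicate.

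The arrays had been scaled to one trimmed mean by the authors. The array medians still differed, and centring on them would lower every log2 ratio by 0.24. Control probe sets for bacterial poly-A RNAs, which are added to a sample before labelling, read a median of 2.54-fold higher on the Th2-4th than on the Th2-1st array, with 21 of 24 over 2-fold. The same controls were 3.94-fold higher in Th2-4th cells in the unstimulated pair and 2.55-fold higher in the GATA3 siRNA pair. The 18 probe sets of the hybridisation controls, added later, were 1.19-fold higher in the stimulated pair. The amounts added are not given, and the part of this difference in the results was not tested. The 3′ to 5′ signal ratio of Gapdh was 0.767 in Th2-4th and 0.775 in Th2-1st cells, and that of Actb 1.32 in Th2-4th and 1.23 in Th2-1st cells. Gata3, the target of the siRNA, read 2853 in Th2-4th and 1798 in Th2-1st cells given its siRNA, against 9261 in Th2-4th and 4883 in Th2-1st cells given the control siRNA.

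Th2 cells are CD4 helper cells programmed by IL-4, STAT6 and GATA3 to secrete IL-4, IL-5 and IL-13, the cytokines of allergy and of defence against worms. Granzymes are serine proteases that cytotoxic lymphocytes store in granules together with perforin, and CD8 T cells and NK cells are their best known source. TCR engagement switches on immediate early genes within the first hours, and cytokine genes with them, while repeated stimulation drives T cells through the cell cycle.

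Stimulated Th2-4th cells had 1268 genes over 2-fold higher and 883 under 0.5-fold, which is 11.4% and 7.96% of the described genes. The counts given below for each gene list are to be read against these shares. At the top of the higher genes stood the granzymes of one chromosomal cluster, NK cell receptors, and secreted factors that include Bmp2, Hgf and Vegfc. Immediate early genes and lysosomal genes were also frequent among them. The lower genes held 36 of the 40 described genes of the cell cycle and DNA replication list, 6 enzymes of serine, one-carbon and cysteine metabolism, and 5 of 10 genes of follicular helper cells. In 518 of the higher and 305 of the lower genes the dimmer signal lay below its array's median, where a fold is poorly determined. With such signals set to the array median, 907 genes were still over 2-fold higher and 647 lower, and 149 and 114 were past 4-fold. The split depends on the scaling: 58.9% of the calls were higher as deposited, 51.7% after quantile normalization and 40.4% with the arrays centred on their medians, where the median of all described genes was -0.19.

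**Figure D1:**
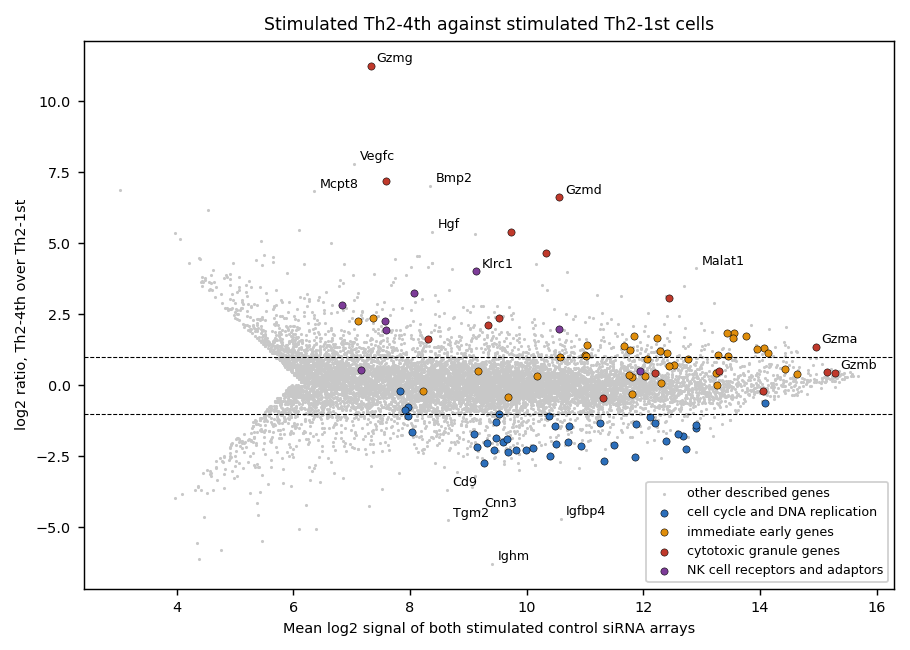
log2 ratio of stimulated Th2-4th over stimulated Th2-1st cells (vertical axis) against the mean log2 signal of both arrays (horizontal axis) for the 11093 described genes, 1 point a gene and 1 array a group, with dashed lines at 2-fold. Cytotoxic granule genes lie highest, with Gzmg at 7992 in Th2-4th and 3.25 in Th2-1st cells, and the cell cycle genes form a band below 0 across the signal range.

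The largest differences were in granzymes. Gzmd, which encodes granzyme D, read 15001 in Th2-4th and 152 in Th2-1st cells, a 98.8-fold difference. Gzmg read 7992 in Th2-4th and 3.25 in Th2-1st cells. The Th2-1st signal was far under the array median, and against that median the difference was 129-fold. Gzme read 5557 in Th2-4th and 130 in Th2-1st cells, and Gzmc read 6437 and 255 in the same order, so these were 42.6-fold and 25.2-fold higher. Gzmf read 2339 in Th2-4th and 15.9 in Th2-1st cells, 37.8-fold when the dim signal was set to the median. The probe sets of Gzmd and Gzme are marked by their names as able to bind related transcripts, so their signals may not be separate. A second Gzmd probe set without that mark read 13612 in Th2-4th and 153.6 in Th2-1st cells.

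These 5 genes lie in one cluster on chromosome 14, and in RefSeq gene order 7 consecutive described genes there were over 2-fold higher: Sdr39u1, Mcpt8, Gzme, Gzmd, Gzmg, Gzmf and Gzmc. Mcpt8 encodes a protease known from basophils and read 873 in Th2-4th and 7.63 in Th2-1st cells. Gzmb, at the end of the cluster, encodes granzyme B, the main apoptosis-inducing granzyme, and was among the brightest genes of both arrays at 46591 in Th2-4th and 34136 in Th2-1st cells, a log2 ratio of 0.45. Gzmn, of the same cluster, was below the median on both arrays (16.8 in Th2-4th and 2.68 in Th2-1st cells).

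The sequences just before the start of these genes are shown because the 5 granzymes that differed resemble each other there and Gzmb, which was within 2-fold, does not resemble them. Mcpt8, which also differed, does not share their sequence. Each is the 150 bases before the start in RefSeq (build GRCm38.p6, minus strand of chromosome 14), at chr14:56132594-56132743 for Gzmd, chr14:56120626-56120775 for Gzme, chr14:56159580-56159729 for Gzmg, chr14:56211408-56211557 for Gzmf, chr14:56234658-56234807 for Gzmc and chr14:56262335-56262484 for Gzmb. Capitals mark the longest word common to the first 5.
Gzmd: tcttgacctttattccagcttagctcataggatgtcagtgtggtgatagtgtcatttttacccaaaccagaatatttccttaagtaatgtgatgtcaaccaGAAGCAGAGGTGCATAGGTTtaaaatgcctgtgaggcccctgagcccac
Gzme: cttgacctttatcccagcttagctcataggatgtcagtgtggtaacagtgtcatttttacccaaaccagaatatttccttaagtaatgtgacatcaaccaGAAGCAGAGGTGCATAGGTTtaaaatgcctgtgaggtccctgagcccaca
Gzmg: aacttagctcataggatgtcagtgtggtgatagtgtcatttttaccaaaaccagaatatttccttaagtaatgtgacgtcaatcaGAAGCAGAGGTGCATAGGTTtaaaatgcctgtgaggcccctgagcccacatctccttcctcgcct
Gzmf: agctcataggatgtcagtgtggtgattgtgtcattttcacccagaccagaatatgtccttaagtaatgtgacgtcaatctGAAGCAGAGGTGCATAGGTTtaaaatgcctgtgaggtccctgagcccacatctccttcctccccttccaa
Gzmc: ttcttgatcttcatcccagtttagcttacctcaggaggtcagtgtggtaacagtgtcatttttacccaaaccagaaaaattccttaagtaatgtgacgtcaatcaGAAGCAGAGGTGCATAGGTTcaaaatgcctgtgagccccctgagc
Gzmb: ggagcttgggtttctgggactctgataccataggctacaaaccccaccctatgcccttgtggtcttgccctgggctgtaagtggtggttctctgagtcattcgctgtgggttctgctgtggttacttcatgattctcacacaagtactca

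The word of 20 bases was taken from the promoters of Gzmc, Gzmd, Gzme, Gzmf and Gzmg, so its presence there was fixed in advance. Of the 32851 promoters in the table, these 5 alone held it, on either strand. Over the 250 bases before the start, the 10 pairs among these 5 were 71.5% to 94.8% identical. The 15 pairs of one of them with Gzmb, Gzmn or Mcpt8 were 47.3% to 52.4% identical. None of the 5 held a match to the AP-1 motif TGANTCA, the GATA motif AGATAA, the NFAT motif GGAAAA or the STAT motif TTCNNNGAA on either strand in those 250 bases. Gzmb held the AP-1 motif, which 6.75% of all promoters in the table hold. Only these exact words were searched, and looser or related forms of the motifs were not looked for. A match is a description of these letters and not a site.

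The culture difference of these granzymes had the same sign in the pairs of arrays not used above. In unstimulated cells Gzmd read 7073 in Th2-4th and 36.7 in Th2-1st cells, and Gzmc read 3019 in Th2-4th and 143 in Th2-1st cells. With the GATA3 siRNA Gzmd read 13376 in Th2-4th and 70.9 in Th2-1st cells, and Gzmg read 7798 in Th2-4th and 18.7 in Th2-1st cells. On all 3 Th2-4th arrays Gzmd, Gzmg and Gzmc were thus above all 3 Th2-1st arrays, with a lowest Th2-4th signal of 3019 (Gzmc, unstimulated) and a highest Th2-1st signal of 348 (Gzmc, GATA3 siRNA).

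Of the 16 described members of the cytotoxic granule list, 10 were higher and none lower, with a median log2 ratio of 1.88 against 0.05 over all described genes. Nkg7, a granule membrane protein, read 16099 in Th2-4th and 1922 in Th2-1st cells. Prf1, perforin, read 1688 in Th2-4th and 323 in Th2-1st cells. Gzma, which encodes granzyme A and lies apart from the cluster on chromosome 13, read 50804 in Th2-4th and 19928 in Th2-1st cells, so it was bright in both. The members within 2-fold included Srgn, the granule proteoglycan serglycin (42967 in Th2-4th and 30714 in Th2-1st cells), Serpinb9, an inhibitor of granzyme B (12047 and 8404 in the same order), and Ctsc, which activates granzymes (2173 and 2939).

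NK cell receptors followed the same direction. Klrc1 encodes NKG2A, an inhibitory receptor that pairs with CD94, and read 2253 in Th2-4th and 139 in Th2-1st cells. Klrd1, the CD94 partner, read 832 in Th2-4th and 86.2 in Th2-1st cells. Klrk1, the activating receptor NKG2D, read 417 in Th2-4th and 86.4 in Th2-1st cells, and its adaptor Hcst (DAP10) 3010 and 758 in the same order. The adaptor Fcer1g read 305 in Th2-4th and 42.8 in Th2-1st cells, and Cd244a, the receptor 2B4, 380 and 97.3. These 6 of the 8 described members of the list were over 2-fold higher in all 3 pairs. Klrd1, Klrk1, Klrc1 and Klra5 are consecutive described genes on chromosome 6. With dim signals set to the array median, Klra5 was within 2-fold. Of 5 described markers of CD8 T, gamma delta T and NK cells 2 were higher, Klrd1 and the transcription factor Eomes (574 in Th2-4th and 275 in Th2-1st cells, within 2-fold with the arrays centred or quantile normalized). Others were flat, lower or dim: Cd8a read 217 in Th2-4th and 162 in Th2-1st cells, Cd8b1 read 163 and 313, and Ncr1 (11.1 and 9.96) and Klra8 (25.8 and 9.49) were below the median on both arrays. Signals of a whole culture cannot tell a difference in each cell from a difference in the share of cells.

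**Figure D2:**
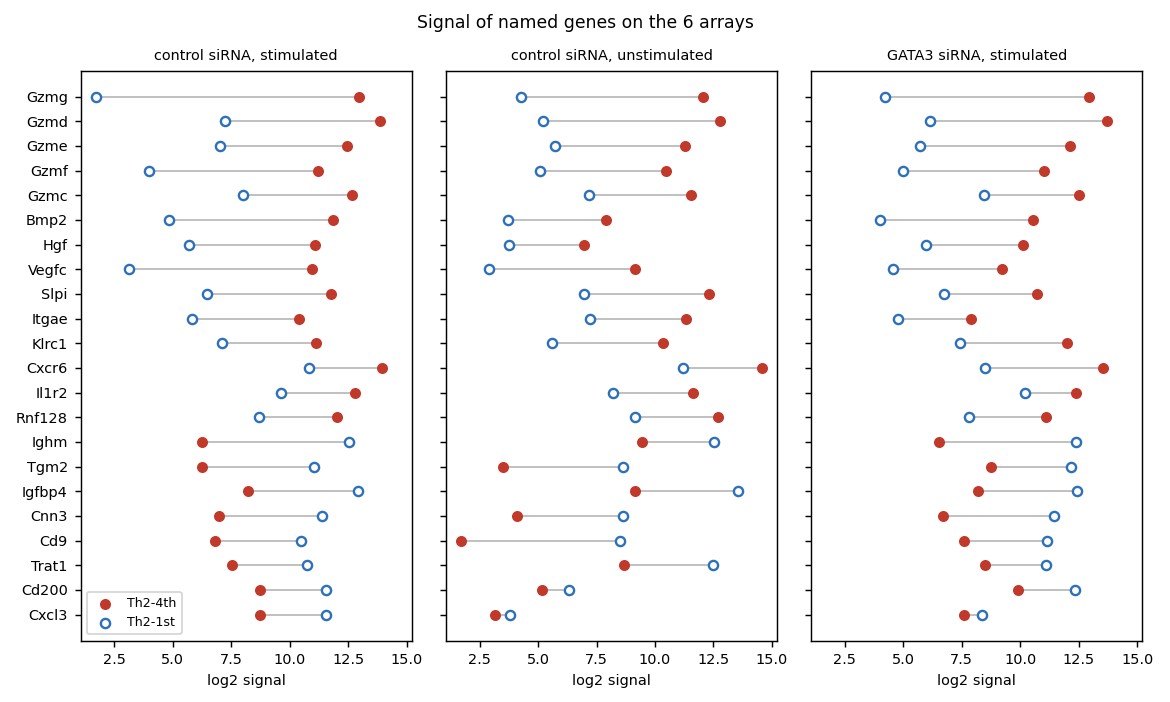
log2 signal of 22 named genes (rows) in Th2-4th (filled red) and Th2-1st cells (open blue) on the stimulated control siRNA, unstimulated control siRNA and GATA3 siRNA arrays, 1 array a point. The granzymes are far apart in all 3 panels (Gzmd 15001 and 152 in the first), and Cd200 was under 0.5-fold in all 3 pairs. Cxcl3 is far apart with stimulation and dim in both cultures without it (8.92 in Th2-4th and 13.9 in Th2-1st cells).

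Beside the granzymes, the highest genes were mostly secreted or surface proteins of varied kinds. Bmp2, a bone morphogenetic protein of the TGF-beta family, read 3719 in Th2-4th and 28.5 in Th2-1st cells, 60.2-fold when the dim signal was set to the median. Hgf, hepatocyte growth factor, read 2178 in Th2-4th and 51.1 in Th2-1st cells, and Vegfc, a growth factor of lymphatic vessels, 1979 and 8.83. Slpi, a secreted inhibitor of leukocyte proteases, read 3516 in Th2-4th and 87.0 in Th2-1st cells. They differed on the unstimulated arrays: in unstimulated Th2-4th cells Bmp2 read 240, Hgf 125 and Vegfc 574, each below its stimulated signal, whereas Slpi read 5148.

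Itgae, the CD103 integrin chain that binds E-cadherin on epithelium, read 1354 in Th2-4th and 57.2 in Th2-1st cells, and its partner Itgb7 read 3112 and 810. Fgl2, a secreted fibrinogen-like protein, read 5025 in Th2-4th and 262 in Th2-1st cells. Pdpn, podoplanin, read 1466 in Th2-4th and 74.6 in Th2-1st cells. Col18a1 (1383 in Th2-4th and 58.4 in Th2-1st cells), Adgrg3 (1472 and 74.3), Ndnf (1740 and 102) and the amino acid transporter Slc43a2 (1104 and 60.7) were 17-fold to 24-fold apart. Transcription factors at this level were Mycn (1335 in Th2-4th and 74.7 in Th2-1st cells, on its brightest probe set) and Lhx2 (999 and 46.2). Dimmer Mycn probe sets gave log2 ratios of 1.01 and -2.60, and Mycn was within 2-fold on the mean over probe sets. The nuclear non-coding RNA Malat1 read 31986 in Th2-4th and 1842 in Th2-1st cells on its brightest probe set, while its 7 probe sets gave log2 ratios of 0.71 to 4.12, and 0.71 was left when probe sets that can bind related transcripts were excluded.

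Of the 25 described members of the BMP and TGF-beta list, 9 were higher and none lower. They were ligands (Bmp2, Bmp7 at 415 in Th2-4th and 69.6 in Th2-1st cells, and Bmp4), receptors (Bmpr2 at 1503 and 281, Acvr1 at 654 and 225, and Acvr2a at 353 and 158), the repressor Skil, the signal transducer Smad3 (3343 and 1581) and the target gene Id3 (281 and 109). Bmp4, Acvr2a and Smad3 were within 2-fold with the arrays centred on their medians. Bmp4 was so too with dim signals set to the array median. Id1, the best known target of BMP signals, read 56.3 in Th2-4th and 104 in Th2-1st cells. The shared transducer Smad4 (2158 and 2172) and Tgfbr2 (2758 and 3134) were close to equal.

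The cytokine genes Il4, Il5 and Il13, which define Th2 cells, were bright in both stimulated cultures and at most 2.24-fold apart. Il4 read 45980 in Th2-4th and 34734 in Th2-1st cells, a log2 ratio of 0.40, and Il5 read 44722 and 26465, a log2 ratio of 0.76. Il13 read 35292 in Th2-4th and 15757 in Th2-1st cells, 2.24-fold. The brightest signal on the arrays was 58757 in Th2-4th and 46410 in Th2-1st cells, so Il4, Il5 and Il3 (55479 and 44252) were read near the upper end of the scale. With the GATA3 siRNA they were further apart: Il5 read 10857 in Th2-4th and 909 in Th2-1st cells, and Il13 18108 and 1506.

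Among the 22 described cytokines 8 were higher and 2 lower. Il6 read 45438 in Th2-4th and 10942 in Th2-1st cells, and Csf1, the macrophage growth factor, 5122 and 980. Il10, which restrains inflammation, read 36157 in Th2-4th and 13392 in Th2-1st cells. Ifng, the signature cytokine of Th1 cells, read 38438 in Th2-4th and 16961 in Th2-1st cells. The others over 2-fold were Clcf1 (3159 in Th2-4th and 873 in Th2-1st cells), Il33 (300 and 115) and Il9 (232 and 93.1). With the arrays centred on their medians or quantile normalized, Ifng and Il13 were within 2-fold. The lower cytokines were Il21, a product of follicular helper cells (2156 in Th2-4th and 8554 in Th2-1st cells), and Ebi3 (379 and 891). Il21 was lower on the GATA3 siRNA arrays too, at 2209 in Th2-4th and 11218 in Th2-1st cells, but it was not under 0.5-fold in the unstimulated pair.

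Death-inducing ligands of the TNF family were higher in the stimulated pair. Tnfsf10 (TRAIL) read 4007 in Th2-4th and 788 in Th2-1st cells, Fasl read 11978 and 3684, and Tnf read 17525 and 3803. In all, 6 of the 13 described TNF ligands were higher and none was lower. The 3 others were Tnfsf13b (BAFF), Tnfsf4 (OX40 ligand) and Tnfsf11 (RANKL, 31282 in Th2-4th and 15455 in Th2-1st cells). Tnfsf8 (7876 in Th2-4th and 7032 in Th2-1st cells) and Tnfsf14 (6130 and 5330) were nearly equal. In the unstimulated pair 4 of the 13 were higher and 3 lower, with Tnf and Tnfsf11 among the lower. In the GATA3 siRNA pair 3 were higher and 2 lower.

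Chemokine ligands differed in both directions, with 9 of 21 higher and 2 lower. Ccl9 read 12526 in Th2-4th and 2328 in Th2-1st cells, and Xcl1, which attracts cross-presenting dendritic cells, read 7942 and 2372. The monocyte attractants Ccl2 (253 in Th2-4th and 7.39 in Th2-1st cells), Ccl7 (370 and 32.9) and Ccl12 (210 and 25.0) were above the median in Th2-4th cells only. Ccl3, Ccl4 and Ccl1 were within 2-fold, with Ccl1 at 51302 in Th2-4th and 38354 in Th2-1st cells. Cxcl3, a neutrophil attractant, went the other way, at 429 in Th2-4th and 2964 in Th2-1st cells, and so did Ccl22, a ligand of CCR4 (43.0 and 190). For Cxcl3 the study itself reported the opposite direction by quantitative RT-PCR. There its level was more than 2-fold higher in Th2 cells after restimulation rounds than in effector Th2 cells.

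Of the 11 described chemokine receptors, Ccr1 (4187 in Th2-4th and 362 in Th2-1st cells), Cxcr6 (15865 and 1801) and Ccrl2 were higher. Ccr7, the lymph node homing receptor, was lower at 68.8 in Th2-4th and 324 in Th2-1st cells, and Cxcr3 read 1561 and 3497. The Th2-associated receptors Ccr8 (144 in Th2-4th and 154 in Th2-1st cells), Ccr4 (90.8 and 130) and Ccr3 (86.9 and 108) were dim and within 2-fold. Among 25 cytokine receptors 9 were higher and 1 lower. Il1r2, the decoy receptor for IL-1, read 7148 in Th2-4th and 780 in Th2-1st cells, Il7r read 9737 and 3045, and Crlf2, the receptor for TSLP, 13019 and 5413. The lower one was Il1r1, the signalling receptor for IL-1, at 14.6 in Th2-4th and 132 in Th2-1st cells. Il1r1 was within 2-fold once dim signals were set to the array median.

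A list of 32 Th2-specific inducible genes assembled by the study had 30 described members, of which 14 were higher and none lower. The study assembled it from genes higher in Th2 than in Th1 and fresh CD4 T cells, and from an earlier list. It was taken up here with earlier results of these data known, so its direction is not independent evidence. Rnf128 (GRAIL), a ubiquitin ligase linked to T cell unresponsiveness, read 4178 in Th2-4th and 410 in Th2-1st cells. Itgb3 (721 in Th2-4th and 163 in Th2-1st cells), Asb2 (3372 and 1078), F2r (36732 and 14322), Penk (38170 and 16426) and Nfil3 (3417 and 1285) were also over 2-fold. Il24 (29380 in Th2-4th and 24642 in Th2-1st cells) and Crem (2802 and 2664) were among those near equality.

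In a broader Th2 list, 3 of the 20 described genes were higher (Hpgds, Dusp6 and Il13) and none was lower, a share near the 11.4% of all described genes. The regulators were above 0 but within 2-fold: Gata3 read 9261 in Th2-4th and 4883 in Th2-1st cells, Stat6 read 2359 and 1269, and Maf read 11515 and 7931. In a Th1 list of 20 described genes 9 were higher and 1, Cxcr3, was lower. Of the 9, Ifng, Il18r1, Eomes and Ccl5 were within 2-fold with the arrays centred on their medians or quantile normalized, and Hlx and Txk once dim signals were set to the array median. Beside Nkg7 and Ifng these were Twist1 (354 in Th2-4th and 59.2 in Th2-1st cells), Il18rap (1795 and 725), Ccl5 (22301 and 10758), Eomes (574 and 275), Hlx, Txk and Il18r1. Tbx21, the master regulator of Th1 cells, read 6552 in Th2-4th and 3485 in Th2-1st cells, a log2 ratio of 0.91.

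The T cell identity of both arrays was plain from Cd3d (24106 in Th2-4th and 14428 in Th2-1st cells), Cd3g (21835 and 7000) and Thy1 (14087 and 11307). Cd4 was modest at 565 in Th2-4th and 222 in Th2-1st cells. Markers of other cells were mostly near or below the median. The sum over the 11 B cell and plasma cell markers on the array was 1835 in Th2-4th and 7453 in Th2-1st cells, and Ighm (76.8 in Th2-4th and 5964 in Th2-1st cells) and Jchain (52.1 and 648) made up most of it in Th2-1st cells. Sdc1, the plasma cell marker syndecan 1, was higher on its brightest probe set (1403 in Th2-4th and 501 in Th2-1st cells), though within 2-fold on the mean over probe sets, and made up most of the sum in Th2-4th cells. The B cell receptor chain Cd79a read 9.29 in Th2-4th and 4.61 in Th2-1st cells, Cd79b read 28.6 and 44.6, and Pax5 read 9.22 and 11.6. The sum over all 15 myeloid and dendritic cell markers on the array was 726 in Th2-4th and 636 in Th2-1st cells, and 6 of them were described, while Lyz2 (45.0 and 5.89) and Itgam (5.00 and 10.9) were below the median on both. Among 10 mast cell and basophil markers, Mcpt8 and Cpa3 (320 in Th2-4th and 255 in Th2-1st cells) were described, while Fcer1a (3.89 and 32.9), Ms4a2 (8.5 and 21.0), Kit (24.4 and 8.19) and Hdc (25.7 and 14.6) were not.

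Immediate early genes of TCR signalling made up the list with the most higher members. Of 38 described members 20 were higher and none lower, with a median log2 ratio of 1.04. Egr1 read 22845 in Th2-4th and 6287 in Th2-1st cells, Egr2 read 26871 and 10922, and Egr3 read 25508 and 7574. The NR4A nuclear receptors Nr4a1 (14331 in Th2-4th and 6860 in Th2-1st cells), Nr4a2 (8011 and 3646) and Nr4a3 (24555 and 10215) were each over 2-fold. With the arrays centred on their medians Nr4a1, Nr4a2 and Fos were within 2-fold, as were Nr4a2, Fosl2 and Spry2 on the mean over probe sets. AP-1 members were split, with Fosb (305 in Th2-4th and 63.0 in Th2-1st cells), Fos (2975 and 1422) and Fosl2 (5421 and 2268) over 2-fold and Jun (1290 and 1032), Jund (9943 and 9755) and Fosl1 (705 and 943) within it. Feedback inhibitors of receptor signalling and NF-kappa-B regulators, Spry1 (8641 in Th2-4th and 2715 in Th2-1st cells), Spry2 (372 and 72.5), Dusp6 (21247 and 6694) and Nfkbiz (21121 and 5858) were higher too. Myc, the driver of growth, was equal at 5218 in Th2-4th and 4939 in Th2-1st cells.

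In the unstimulated pair 10 of these 38 genes were higher and 3 lower, with a median log2 ratio of 0.42. In the GATA3 siRNA pair 7 were higher and 1 lower, with a median of 0.42. Egr1 read 603 in Th2-4th and 199 in Th2-1st cells without stimulation, and Nr4a1 read 111 and 99.5. Of 30 described genes of the TCR complex and proximal signalling 23 were within 2-fold, 6 were higher and 1 lower, against 11.4% and 7.96% of all described genes. The higher ones included Cd3g, Ptpn22 (10608 in Th2-4th and 4243 in Th2-1st cells) and Plcg1 (3713 and 1554). The lower gene of that list was Trat1, a TCR-associated adaptor, at 184 in Th2-4th and 1684 in Th2-1st cells.

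Cell cycle genes were lower almost throughout. Of the 40 described members of the list, 36 were under 0.5-fold and none was over 2-fold, against 7.96% of described genes under 0.5-fold, and the median log2 ratio was -1.83. All 40 had a ratio below 0. The cyclin-dependent kinase Cdk1 read 1538 in Th2-4th and 8901 in Th2-1st cells, and the chromosomal passenger genes Aurkb (241 in Th2-4th and 1583 in Th2-1st cells) and Birc5 (1028 and 6436) were also low. Top2a, a topoisomerase of dividing cells, read 3104 in Th2-4th and 14777 in Th2-1st cells, and the proliferation marker Mki67 2713 and 10490. With the list split after its values were seen, the 18 mitosis genes had a median of -2.11 and the 22 replication genes one of -1.37. The replication helicase subunits Mcm2 to Mcm7 lay between -1.11 (Mcm6) and -1.80 (Mcm5, 3519 in Th2-4th and 12254 in Th2-1st cells). Within 2-fold were Pcna (14044 in Th2-4th and 21603 in Th2-1st cells), Tyms, E2f1 and Foxm1.

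The same genes were low in unstimulated Th2-4th cells, where 33 of the 40 were under 0.5-fold, and with the GATA3 siRNA, where 35 were. In all, 30 of the 40 were under 0.5-fold in each of the 3 pairs, which share no array. Further genes of cell division outside the list were among the 20 lowest of all described genes: Trip13 (690 in Th2-4th and 5240 in Th2-1st cells), Kif20a (300 and 2054), Traip (132 and 888) and Gas2l3 (156 and 1277).

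Cell cycle inhibitors showed the opposite. Of 16 described, 5 were higher: Cdkn2b, p15 (1891 in Th2-4th and 275 in Th2-1st cells), Cdkn2a, the p16 and ARF locus (1160 and 299), Cdkn1a, p21 (9586 and 3207), Btg2 (6352 and 1431) and Ccng1 (11179 and 4324). Cdkn1b, p27, read 632 in Th2-4th and 513 in Th2-1st cells. The lower one, Cdkn3 (300 in Th2-4th and 902 in Th2-1st cells), encodes a phosphatase that dividing cells express. All 5 higher inhibitors were over 2-fold in all 3 pairs. A list of p53 target genes made after values were seen had 9 of 20 higher and 1 lower, led by Eda2r (307 in Th2-4th and 46.6 in Th2-1st cells) and Zmat3 (1803 and 332). The p53 inhibitor Mdm2 read 2012 in Th2-4th and 1556 in Th2-1st cells.

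**Figure D3:**
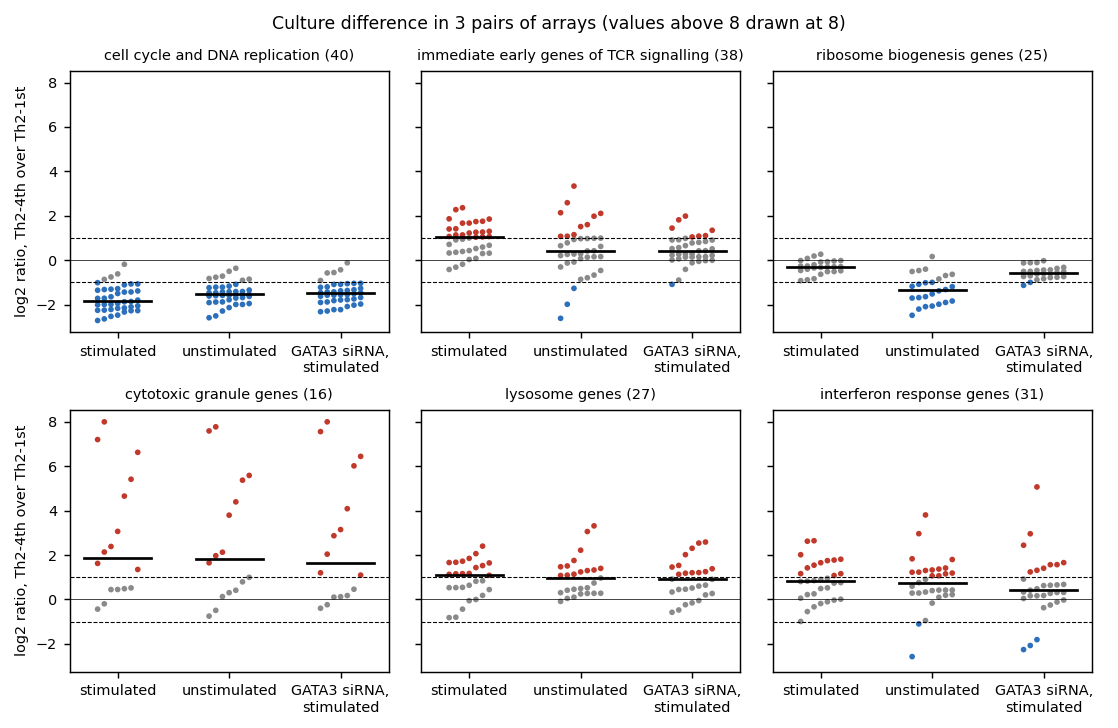
log2 ratios of Th2-4th over Th2-1st cells (vertical axis) for the described members of 6 gene lists in the stimulated, unstimulated and GATA3 siRNA pairs of arrays, 1 point a gene, bars at the medians, red and blue past 2-fold. Cell cycle medians stay between -1.83 and -1.49, whereas the median of the ribosome biogenesis genes is -0.30 with stimulation and -1.33 without it.

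Genes of growth differed by class. None of the 25 ribosome biogenesis genes was past 2-fold in the stimulated pair, and their median log2 ratio was -0.30, but 18 were under 0.5-fold in the unstimulated pair. Nop56 read 7455 in Th2-4th and 11585 in Th2-1st cells with stimulation, and 1199 and 5031 without it. Myc stood out likewise, at 299 in unstimulated Th2-4th and 1841 in unstimulated Th2-1st cells. Whether the cultures respond differently was not tested, since each response rests on 1 array a side.

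Genes of amino acid supply were lower in part. Of 24 described members of the ATF4 and amino acid list 8 were lower and 2 higher, with a median of -0.59. The serine synthesis enzymes Phgdh (4267 in Th2-4th and 9854 in Th2-1st cells) and Psat1 (2971 and 9013), the serine hydroxymethyltransferases Shmt1 (1316 and 3459) and Shmt2 (884 and 2346), Mthfd2 (1448 and 3572) and Cth, cystathionine gamma-lyase (336 and 2630), were all lower. The amino acid carriers Slc7a5 (4775 in Th2-4th and 4713 in Th2-1st cells) and Slc3a2 (3904 and 3542) were close to equal. Most glycolysis genes were close to equal, with Pgk1 at 26991 in Th2-4th and 27524 in Th2-1st cells, and 2 of 27 were lower: Tpi1 (3476 in Th2-4th and 10669 in Th2-1st cells) and the hypoxia target Egln3 (2923 and 8026). In the unfolded protein response list 3 of 24 were lower and 1 higher. Of the glycolysis list 1 gene was higher. Over all described genes 7.96% were lower and 11.4% higher, and counts this small are not read as a result about either list. Sdf2l1 (1851 in Th2-4th and 6595 in Th2-1st cells) and Herpud1 (1329 and 3629) were the lowest of the unfolded protein response list. The chaperone Hspa5 read 38763 in Th2-4th and 33385 in Th2-1st cells. None of 11 reference genes was past 2-fold, with Hprt at 7248 in Th2-4th and 11263 in Th2-1st cells and Gusb at 1995 and 2074.

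Lysosomal genes, a list made after values were seen, were higher in 14 of 27 and lower in none. The protease cathepsin D, Ctsd, read 4929 in Th2-4th and 933 in Th2-1st cells, Ctss read 6611 and 2073, and Grn, progranulin, 5554 and 1542. Psap was equal at 881 in Th2-4th and 882 in Th2-1st cells. The medians of this list were 1.09, 0.97 and 0.91 in the stimulated, unstimulated and GATA3 siRNA pairs.

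Of 31 described interferon response genes 12 were higher and none lower. Mx1, an antiviral GTPase, read 1252 in Th2-4th and 200 in Th2-1st cells, the RNA sensor Ifih1 (MDA5) read 13467 and 3332, and the nucleic acid sensor Zbp1 2086 and 595. Isg20 (3768 in Th2-4th and 4049 in Th2-1st cells), Bst2 (1711 and 1747) and Irf7 (279 and 150) were within 2-fold, and 8 of the 12 were over 2-fold in all 3 pairs. The membrane proteins of the IFITM family, which block virus entry, were 5 of 5 described over 2-fold, Ifitm5 no longer so once dim signals were set to the array median. Ifitm1 read 25928 in Th2-4th and 3504 in Th2-1st cells, Ifitm2 read 16612 and 4313, and Ifitm3 read 25597 and 9443. These genes are neighbours on chromosome 7, where Ifitm5, Ifitm2, Ifitm1, Ifitm3, Ifitm6, B4galnt4 and Pkp3 form a run of 7 consecutive described genes over 2-fold. B4galnt4 was within 2-fold with the arrays centred on their medians or quantile normalized.

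The lowest of all genes was Ighm, the immunoglobulin heavy chain mu locus. Its brightest probe set read 76.8 in Th2-4th and 5964 in Th2-1st cells, and a second read 42.9 and 1666, but most of its 11 probe sets were dim on both arrays, and without the probe sets that can bind related transcripts its difference was within 2-fold. Jchain and Igkv8-30 (14.5 in Th2-4th and 485 in Th2-1st cells), other immunoglobulin genes, went the same way. Tgm2, transglutaminase 2, read 76.8 in Th2-4th and 2080 in Th2-1st cells. Igfbp4, a binding protein of insulin-like growth factors that naive T cells express, read 301 in Th2-4th and 7808 in Th2-1st cells, and Cnn3, a calponin, read 126 and 2686. The tetraspanin Cd9 read 110 in Th2-4th and 1418 in Th2-1st cells, and Mmp10, a matrix metalloproteinase, 154 and 1845. Igfbp4 and Cnn3 were under 0.5-fold in each of the 3 pairs, while Mmp10 read 29.0 in Th2-4th and 54.8 in Th2-1st cells without stimulation.

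Genes of follicular helper cells were lower in 5 of 10 described and higher in 1, with a median log2 ratio of -1.27. Cd200 read 428 in Th2-4th and 3005 in Th2-1st cells, the inhibitory receptor Btla read 235 and 1363, Slamf6 read 11.9 and 394, and the coactivator Pou2af1 read 985 and 3057. Tox2 was the higher one, at 548 in Th2-4th and 150 in Th2-1st cells, and Bcl6, the regulator of these cells, read 1095 and 599. Naive and central memory genes were divided, with 6 of 19 higher and 5 lower. Lower were Igfbp4, Ccr7, Actn1, Itga6 and Cd27, whereas Il7r and Dgka (3190 in Th2-4th and 1559 in Th2-1st cells) were higher. Lef1 (1912 in Th2-4th and 1475 in Th2-1st cells) and Satb1 (7567 and 7674) were within 2-fold.

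Checkpoint molecules did not move together. Of 31 described costimulatory and inhibitory receptors 5 were higher and 6 lower, against 11.4% and 7.96% of all described genes. Vsir (VISTA) read 5740 in Th2-4th and 1238 in Th2-1st cells, Cd96 read 709 and 235, and Pdcd1lg2 (PD-L2) read 8744 and 4284. Pdcd1 (PD-1) read 3692 in Th2-4th and 2210 in Th2-1st cells, Havcr2 (TIM-3) 9464 and 4844, and Ctla4 4384 and 4740, all within 2-fold. In unstimulated cells Havcr2 read 703 in Th2-4th and 59.6 in Th2-1st cells and Pdcd1 555 and 162. Foxp3, the regulatory T cell factor, was below the median on both stimulated arrays, at 31.7 in Th2-4th and 32.9 in Th2-1st cells. Other genes of the regulatory T cell list were split: Nrp1 (10802 in Th2-4th and 2940 in Th2-1st cells), Nt5e (CD73, 339 and 60.2) and Entpd1 (CD39, 905 and 306) were higher, and Ikzf2 (86.9 and 298) and Izumo1r (383 and 1040) lower.

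**Figure D4:**
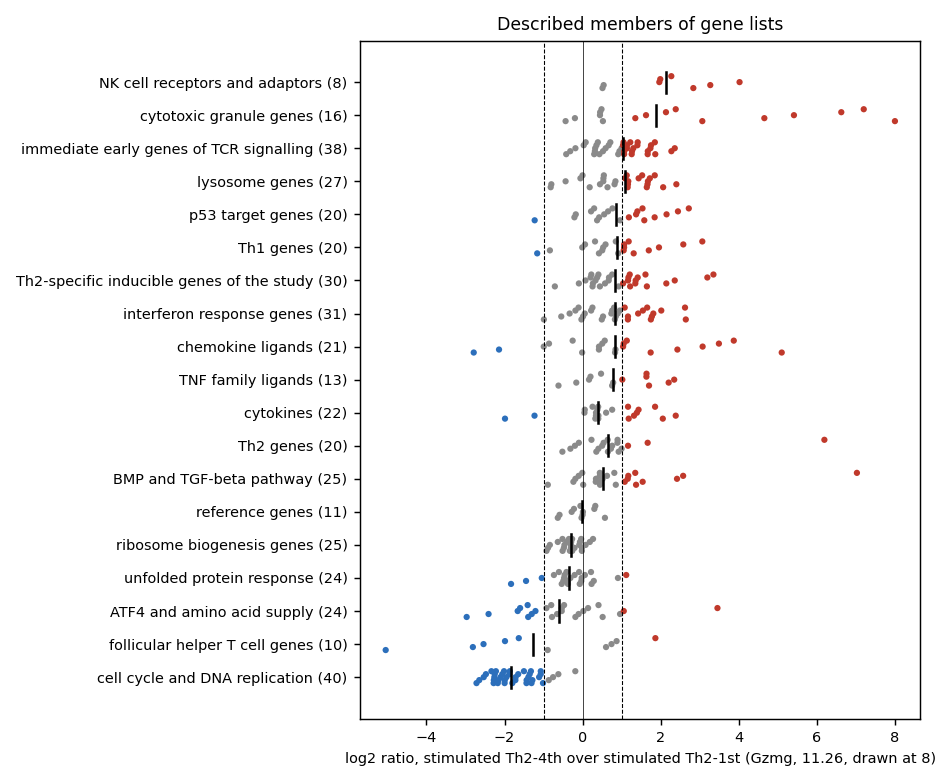
log2 ratio of stimulated Th2-4th over stimulated Th2-1st cells for the described members of 19 gene lists, 1 point a gene with the number of described members in brackets, bars at the medians and dashed lines at 2-fold. NK cell receptors (median 2.13) and cytotoxic granule genes (1.88) stand at one end and cell cycle genes (-1.83) at the other, with reference genes at -0.03.

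The culture difference was then set against the 2 pairs of arrays not used so far. Of the described genes, 11.2% were over 2-fold higher and 9.45% under 0.5-fold in the unstimulated pair, and 9.06% and 7.74% in the GATA3 siRNA pair. Of the 1268 genes higher in stimulated Th2-4th cells, 589 (46.5%) were over 2-fold higher in the unstimulated pair and 651 (51.3%) in the GATA3 siRNA pair, and 413 (32.6%) in both. Of the 883 lower genes, 449 (50.8%) were under 0.5-fold in the unstimulated pair, 516 (58.4%) in the GATA3 siRNA pair and 363 (41.1%) in both. Past 2-fold in the opposite direction were 52 and 25 genes in the unstimulated pair and 49 and 18 in the GATA3 siRNA pair. Among the called genes with both stimulated signals above the median, 289 of 750 higher and 285 of 578 lower genes were past 2-fold in all 3 pairs. The labels do not say whether the arrays of one culture came from the same cells, so the pairs may not be separate cultures.

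**Figure D5:**
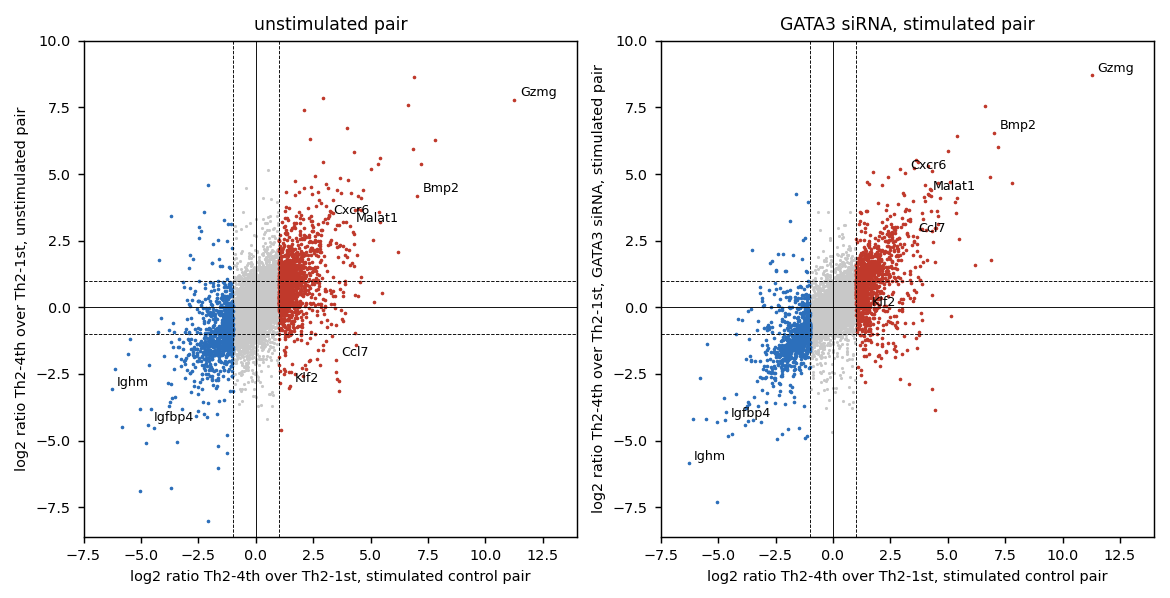
log2 ratio of Th2-4th over Th2-1st cells in the unstimulated pair (left) and the GATA3 siRNA pair (right), on the vertical axes, against that in the stimulated control pair, on the horizontal axes, for the 11093 described genes, 1 point a gene, with genes past 2-fold in the stimulated pair in red and blue. Of the red points 589 lie above 1 on the left and 651 on the right.

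In the unstimulated pair, 52 of the higher and 25 of the lower genes were past 2-fold in the opposite direction. The 5 largest such differences are named here. Klf2, a factor of quiescent T cells, read 139 in Th2-4th and 50.2 in Th2-1st cells with stimulation, but 109 in Th2-4th and 841 in Th2-1st cells without it. Rgcc, a cell cycle regulator, read 27178 in Th2-4th and 13321 in Th2-1st cells with stimulation, and 1546 and 5651 without it. Hspa1b, an inducible heat shock protein, read 1677 in Th2-4th and 640 in Th2-1st cells with stimulation and 183 and 383 without it. Tmcc3 (145 in Th2-4th and 71.1 in Th2-1st cells) and Tnfsf11 were the other 2 of the 5 genes named for this. In these genes the signal of Th2-1st cells was the higher one at rest, and that of Th2-4th cells after TCR stimulation.

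Where a called gene had a second probe set above an array median, it mostly gave the same direction. This was so for 387 of 420 higher genes, of which 264 were over 2-fold on it too, and for 303 of 327 lower genes, of which 187 were. Opposite calls past 2-fold came from 7 and 4 genes. Across 5255 described genes with such a second probe set, the log2 ratios differed by a median of 0.32. In the promoter table, the AP-1 motif was found before 6.51% of the higher genes, 4.26% of the lower and 4.39% of all described genes with a promoter listed, and the GATA motif before 7.31%, 6.10% and 5.97% in that order. The NFAT motif was found before 18.9%, 18.6% and 18.4%, and the STAT motif before 6.01%, 5.82% and 5.94%.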

How the data were processed

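RNA of 6 conditions was hybridised to 1 Affymetrix mouse whole-genome array each. The deposited values are linear signal intensities per probe set, processed by the authors with Affymetrix Expression Console, per the labels. Neither the signal algorithm nor the version of the program is stated in the sources. The 2% trimmed mean was 500 on each array, so the values had been scaled, and they were used as deposited. Of 45101 probe sets, 34958 named 1 gene, 932 several and 9211 none. Each of 18194 genes was represented by 1 probe set, the brightest by mean log2 signal across the 6 arrays, and log2 ratios were taken without a pseudocount. The number of arrays limits the precision: with 1 array per group there is no replicate error, and no p-value is given. A call is a ratio over 2 or under 0.5, the robust SD was taken among the 500 genes nearest in mean log2 signal, or within 5 equal groups by it, and the calculations were tested on simulated data. Promoters (250 bases before the start) came from RefSeq, build GRCm38.p6. Python 3.11.15, pandas 2.3.3, numpy 2.4.6, scipy 1.17.1, matplotlib 3.10.9 and Biopython 1.88 were used.

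The genes and lists were chosen with earlier results of these data known, and the lists of replication, mitosis, p53 target, lysosome, semaphorin and IFITM genes after their values were seen. Named genes were the 20 highest and 20 lowest after dim signals were raised to the array median, up to 6 members of each list with the largest such ratio and up to 2 bright members within 0.3 of 0, genes the study names, and the 5 largest opposite differences between the stimulated and unstimulated pairs. Of the genes in the text, 78 lie outside this rule (defining markers, neighbours and further list members) and were chosen after their values were seen. The alternatives changed the probe set of a gene, the scaling, the treatment of dim signals and the fold.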

Additional observations from a re-analysis of the deposited data

Results flagged for a closer look

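In 9 named genes the culture difference was past 2-fold in opposite directions with and without TCR stimulation; with 1 array a condition, the difference between the pairs was not tested. Klf2 had a log2 ratio of 1.47 with stimulation and -2.95 without it, Rgcc 1.03 and -1.87, Hspa1b 1.39 and -1.07, Tmcc3 1.02 and -2.16, and Tnfsf11 1.02 and -1.18. For Tnf the log2 ratio was 2.20 with stimulation, and unstimulated cells read 18.2 in Th2-4th and 90.3 in Th2-1st cells. For Spry1 it was 1.67, and unstimulated cells read 48.7 in Th2-4th and 118 in Th2-1st cells. Ccl7 (3.49) and Ccl12 (3.07) were below the array median on both unstimulated arrays, where Ccl7 read 9.38 in Th2-4th and 36.8 in Th2-1st cells and Ccl12 0.987 in Th2-4th and 2.36 in Th2-1st cells.

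The poly-A labelling controls, which belong to no gene, read a median of 2.54-fold higher on the stimulated Th2-4th array than on the stimulated Th2-1st array. Labelling and culture cannot be told apart on these arrays.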

How the results depend on the processing

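No paired analysis was possible because the stimulated comparison has 1 array per culture, and for the same reason no array of it could be left out. A fit of culture over the 3 pairs together, which would take differences between the conditions as error, was not run. The 1268 higher and 883 lower genes became 750 and 578 with both signals above the array median, 3127 and 2307 with no filter on low signals, and 487 and 357 at a fold of 10 to the power 0.5. Under the 6 other settings the counts ran between 896 and 1786 higher and between 647 and 1324 lower genes. The alternatives gave 1468 values of 251 named genes, and a sign change was counted only where the main log2 ratio was over 1 in size. There were 4 such changes, all in genes below the median on both arrays. Fcer1a, Itgam and Ms4a2 had a log2 ratio of 0.24 once dim signals were set to the array median, which is the ratio of the medians themselves. Kit had -0.11 as a mean over probe sets. Smaller ratios also changed sign, since centring turns those between 0 and 0.24 negative. Ighm (-0.61) and Malat1 (0.71) were within 2-fold without probe sets that can bind related transcripts. Centring on the array medians brought 18 named genes within 2-fold, among them Ifng, Il13, Nr4a1, Nr4a2, Fos, Smad3, Penk, Ccl5 and Tnfsf11. Of the 49 gene lists, none with a median log2 ratio over 1 in size changed sign under an alternative. Sign changes of smaller list medians were not counted. Without replicates, small ratios cannot be set against any error, and dim signals limit the largest folds.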
